A study of Mesocricetus auratus with 64 samples.

Results

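The genes described here encode the kinetochore and the spindle assembly checkpoint, the protein machinery that attaches chromosomes to spindle microtubules and holds back anaphase until attachment is complete. They were taken by gene symbol from a list of 38 names. A row was found for 35 of them among the 32303 gene rows of the count tables, and Cenpp, Pmf1 and Incenp were not analysed here. By role, the 35 genes comprise 1 for the centromeric histone CENP-A, 12 for the inner kinetochore, 2 for the fibrous corona, 9 for the outer kinetochore, 6 for the checkpoint, 3 for the chromosomal passenger complex and 2 for anaphase onset.

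The samples came from golden hamsters of the Syrian breed, either wild type (WT) or Pld6 KO, and only their long RNA libraries were used. Pld6 encodes a mitochondrial phospholipase D family protein required for the production of piRNAs, the small RNAs that silence transposons in the germ line. Testis of animals aged 3 weeks was represented by 3 libraries per genotype. For each genotype there were 2 libraries each of GV-stage oocytes, MII-stage oocytes, embryos labelled 10PEA, embryos labelled 1C-20PEA, embryos labelled 33PEA and embryos labelled 54PEA, and a further pair of Pld6 KO MII oocyte libraries is labelled D321. The labels do not spell out PEA or D321, and they record no treatment, promoter or further allele for any group. Testis libraries were made from total RNA of the whole tissue, and oocyte and embryo libraries from single oocytes or embryos with ERCC spike-in RNA added. No parent animal is named for any library, so the p-values below measure the spread between libraries, part of which may be technical.

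A kinetochore is built in layers on centromeric chromatin. CENP-A, a histone H3 variant, marks the centromere and is bound by the constitutive centromere-associated network (CCAN, the CENP proteins of the inner kinetochore), which in turn carries the KMN network of Knl1, the Mis12 complex and the microtubule-binding Ndc80 complex. Unattached kinetochores recruit Mad and Bub proteins that keep Cdc20 from activating the anaphase-promoting complex, and once Cdc20 is released, separase (Espl1) cleaves cohesin. In the ovary, transcripts of this machinery are stored in the oocyte for meiosis and the first cleavages, and in the testis they are used by dividing spermatogonia and by spermatocytes.

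Testis libraries held 31572737 to 34257661 gene counts, and oocyte and embryo libraries held 1544198 to 11031837. Among these 26, the 2 libraries of KO embryos at 54PEA stood apart. They held 2755240 and 1544198 gene counts, ERCC spike-ins took 55.5% and 77.8% of all their counts, and the Spearman correlation between them across genes was −0.103, against 0.532 to 0.955 in the other oocyte and embryo pairs. Only 19 and 12 of the 35 genes had any count there, against 26 to 35 in every other oocyte and embryo library. A count of 0 in the shallower of these 2 libraries allows a level of up to 1.94 CPM (counts per 1e+06 gene counts of the library), for counting error only. Pld6 itself measured 37.7 to 51.2 CPM in WT testis and 2.46 to 4.94 CPM in KO testis. In GV oocytes it measured 36.2 and 31.9 CPM in WT against 42.0 and 22.7 CPM in KO, and all 4 libraries at 54PEA were at 0. No label states how the gene was altered. The Pld6 level separates the genotype labels in testis and does not separate them in GV oocytes, so it is not taken as a check of the alteration. Germ cell markers such as Dazl were also lower in KO testis (594.3 CPM in WT, 19.9 CPM in KO), and their part in the Pld6 level was not tested.

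Kinetochore and checkpoint transcripts were lower throughout the KO testis. Of the 35 genes, 32 fell and 0 rose (edgeR quasi-likelihood F test, Benjamini-Hochberg adjusted p below 0.05). Among all 18024 genes tested, 30.2% fell and 27.9% rose, 58.0% in all. The median log2 change of the 35 genes was −2.42, and that of all genes tested was 0.03. Summed over the 35 genes, the level was 2003 to 2168 CPM in the WT libraries and 318.2 to 351.0 CPM in the KO libraries. All 3 KO libraries lay below all 3 WT libraries for 33 of the 35 genes, as they did for 37.7% of all genes tested. In size, 31 genes fell at least 2-fold, 24 at least 4-fold, 11 at least 8-fold and 4 at least 16-fold.

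**Figure D1:**
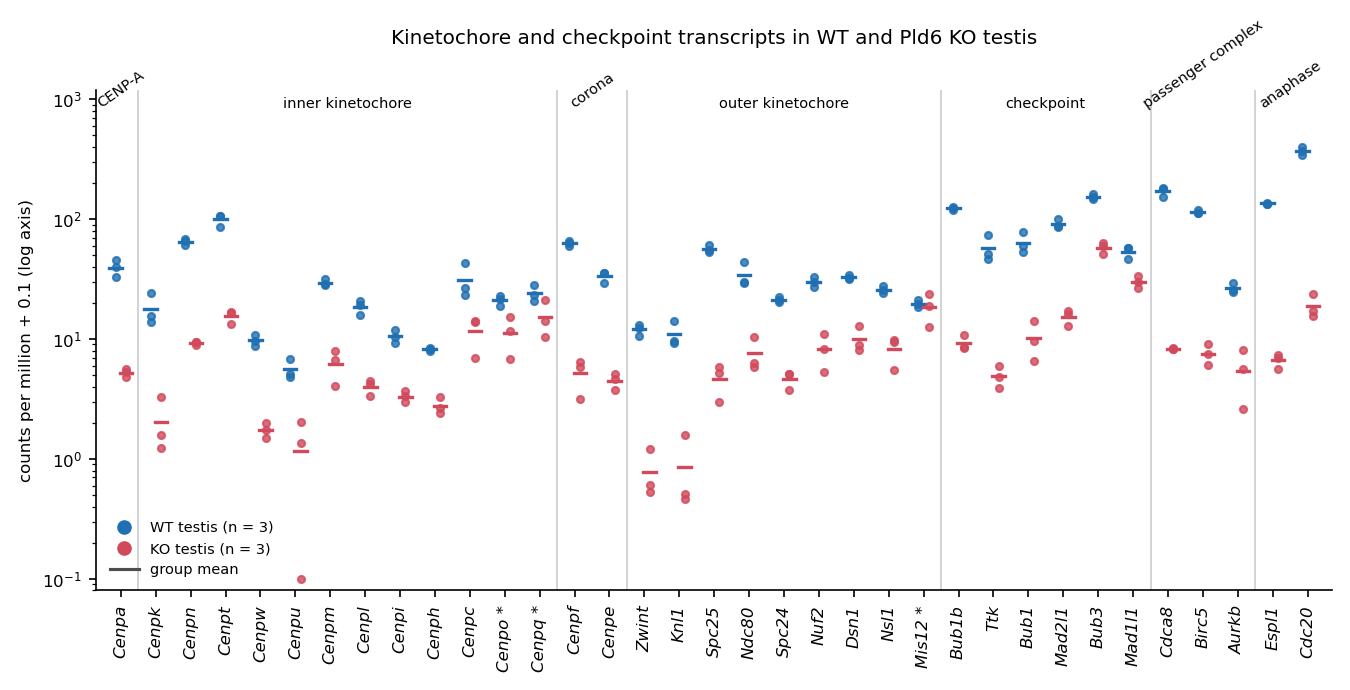
Level of each of the 35 genes in the 3 WT and 3 KO testis libraries, in CPM plus 0.1 on a log axis; points are libraries, short lines are group means, and genes are ordered by log2 change within each role. An asterisk marks the 3 genes that did not pass the test (Cenpo, Cenpq and Mis12), and Cdca8, Espl1, Cdc20 and Zwint show the widest gaps.

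At the base of the structure, Cenpa, which encodes the centromeric histone itself, measured 39.4, 45.5 and 33.0 CPM in WT testis and 5.50, 4.68 and 5.19 CPM in KO testis. The groups did not overlap, and the log2 change was −2.81 ± 0.23 (standard error, n = 3 per group, edgeR adjusted p = 1.11e-05).

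Of the 12 inner kinetochore genes, 10 fell, with a median log2 change of −2.13 over all 12. The steepest fall was that of Cenpk, whose protein belongs to the CENP-H/I/K/M subcomplex. Its level was 13.8, 15.5 and 24.1 CPM in WT and 1.13, 1.49 and 3.20 CPM in KO, a log2 change of −3.06 ± 0.46 (edgeR adjusted p = 4.20e-04). Cenpt, which links the inner kinetochore directly to the Ndc80 complex, measured 106.3, 106.9 and 86.4 CPM in WT and 13.2, 16.8 and 16.3 CPM in KO (log2 −2.56 ± 0.21, edgeR adjusted p = 1.25e-05). The subcomplex partners of Cenpk also fell, Cenph by 1.47, Cenpi by 1.57 and Cenpm by 2.13 on the log2 scale. Cenpn and Cenpl, which encode the subcomplex that reads the CENP-A nucleosome, fell by 2.701 and 2.12. Cenpc, the other reader of that nucleosome, fell by 1.29, and its call was lost without WT replicate 3 (adjusted p = 0.0544). Cenpw, the histone-fold partner of Cenpt, fell by 2.42. Cenpu fell by 2.28 from 4.75 to 6.74 CPM in WT to between 0 and 1.92 CPM in KO, with an adjusted p of 0.0430, and its call was lost in 4 of 6 refits that left out 1 library.

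The CENP-O/P/Q/U/R branch of the inner kinetochore held both inner kinetochore genes that did not pass. Cenpo measured 21.6, 18.9 and 22.9 CPM in WT and 11.7, 15.2 and 6.68 CPM in KO, lower in every KO library, with a log2 change of −0.80 ± 0.31 (edgeR adjusted p = 0.0518). It passed without KO replicate 2 and in 4 of the 5 other settings tried. Cenpq measured 20.5, 23.2 and 27.9 CPM in WT and 21.0, 14.0 and 10.3 CPM in KO, so the groups overlapped (log2 −0.55 ± 0.28, edgeR adjusted p = 0.123).

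Both corona genes fell. Cenpf, a large microtubule-binding protein of the outer corona, measured 59.1, 63.4 and 66.0 CPM in WT and 5.78, 3.04 and 6.37 CPM in KO (log2 −3.51 ± 0.30, edgeR adjusted p = 1.50e-05). Cenpe, the kinesin motor that carries chromosomes to the spindle equator, fell by 2.81.

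Of the 9 outer kinetochore genes, 8 fell, with a median log2 change of −2.09. Zwint, which links Knl1 to the RZZ complex, measured 13.05, 10.4 and 12.3 CPM in WT and 1.099, 0.426 and 0.507 CPM in KO, a log2 change of −4.02 ± 0.40 (edgeR adjusted p = 4.25e-05). Knl1, the scaffold to which Bub proteins dock, fell by 3.77. The Ndc80 complex binds microtubules with its Ndc80 and Nuf2 heads and anchors to the inner kinetochore with Spc24 and Spc25. Spc25 measured 52.9, 55.4 and 60.6 CPM in WT and 5.15, 2.86 and 5.70 CPM in KO (log2 −3.50 ± 0.29, edgeR adjusted p = 1.35e-05), whereas Ndc80, Spc24 and Nuf2 fell by 2.09, 2.09 and 1.75. In the Mis12 complex, Dsn1 fell by 1.604 and Nsl1 by 1.52. Mis12, the subunit that gives this complex its name, measured 19.5, 21.0 and 18.4 CPM in WT and 23.7, 18.9 and 12.5 CPM in KO. The groups overlapped, and the log2 change of 0.02 ± 0.25 (edgeR adjusted p = 0.951) took either sign among the other settings tried.

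All 6 checkpoint genes fell, with a median log2 change of −2.48. Bub1b, which encodes BubR1, the subunit that blocks Cdc20 in the mitotic checkpoint complex, measured 123.6, 119.5 and 125.1 CPM in WT and 10.8, 8.24 and 8.52 CPM in KO (log2 −3.62 ± 0.20, edgeR adjusted p = 2.00e-06). The kinase genes Ttk (Mps1, at the top of checkpoint signalling) and Bub1 fell by 3.46 and 2.53. Mad2l1, whose product is converted to the Cdc20-binding form at unattached kinetochores, fell by 2.44. The 2 mildest falls were those of Bub3 and Mad1l1. Bub3, the adaptor that carries Bub1 and BubR1 to Knl1, measured 148.3, 151.4 and 162.0 CPM in WT and 50.7, 62.9 and 59.6 CPM in KO (log2 −1.28 ± 0.19, edgeR adjusted p = 3.91e-04). Mad1l1, the kinetochore receptor of Mad2, measured 56.8, 56.8 and 46.5 CPM in WT and 26.6, 33.3 and 29.7 CPM in KO (log2 −0.70 ± 0.20, edgeR adjusted p = 0.0130), and its call was lost without WT replicate 1 (adjusted p = 0.0682).

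The passenger complex and the anaphase genes held several of the steepest falls. Cdca8, which encodes borealin, measured 183.1, 153.0 and 177.2 CPM in WT and 8.26, 8.21 and 8.17 CPM in KO, a 19.1-fold difference (log2 −4.26 ± 0.21, edgeR adjusted p = 1.46e-06). Birc5, which encodes survivin, fell by 3.82. Aurkb, the kinase of the complex, fell by 2.19. Espl1 measured 136.7, 134.4 and 133.8 CPM in WT and 7.32, 5.53 and 6.90 CPM in KO (log2 −4.23 ± 0.21, edgeR adjusted p = 1.46e-06). Cdc20 measured 371.3, 343.3 and 402.0 CPM in WT and 17.0, 23.6 and 15.5 CPM in KO (log2 −4.19 ± 0.24, edgeR adjusted p = 2.46e-06). For each of these 3 genes the KO libraries lay far below every WT library.

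Neighbouring pathways in the same testis libraries gave the following counts, where 30.2% of all genes tested fell and 27.9% rose. Of 12 RZZ, Ska and other outer kinetochore genes tested, 10 fell and 1 rose, with a median log2 change of −3.19. The largest changes on that list were in Nusap1 (69.9 ± 16.6 to 4.16 ± 1.33 CPM, SD, n = 3), Trip13 (101.7 ± 8.13 to 6.33 ± 3.14 CPM) and Kif2c (69.3 ± 5.61 to 4.64 ± 1.07 CPM). Of 10 other mitotic kinases and cyclins, 9 fell and 0 rose (median −3.05), and all 12 DNA replication and proliferation genes fell (median −1.96). Of 5 genes for CENP-A loading and other centromere proteins, 4 fell and 1 rose (median −1.93). Of 12 genes for centromeric cohesion and its protectors, 6 fell and 0 rose (median −1.17), led by Meikin, the meiosis-specific kinetochore protein, which measured 11.2 ± 3.17 CPM in WT libraries against 0.0725 ± 0.0162 CPM in KO libraries. The anaphase-promoting complex with its activators, E2 enzymes and securin showed 6 falls and 4 rises among 18 genes, with a median of −0.20. These counts are near the shares of all genes. Its falls included Ube2c, the E2 enzyme (84.9 ± 6.43 to 8.07 ± 0.487 CPM), and Pttg1, which encodes securin (96.0 ± 11.2 to 10.5 ± 2.94 CPM).

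**Figure D2:**
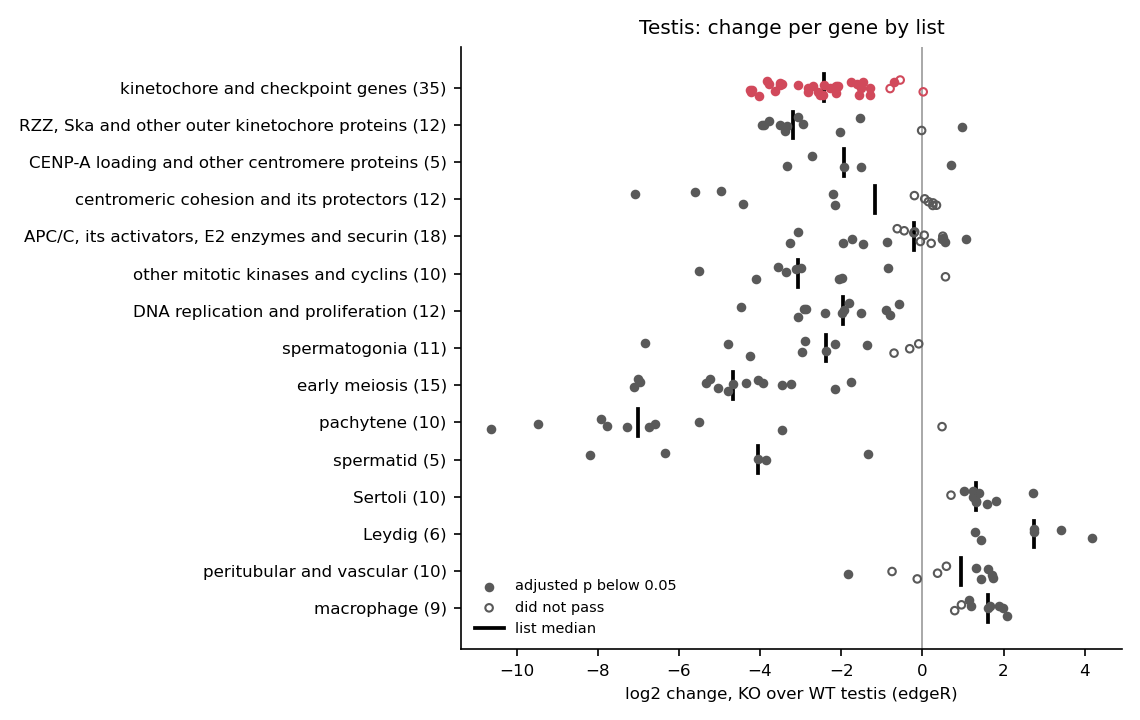
Log2 change of each tested gene between KO and WT testis, for the kinetochore and checkpoint genes and for lists of neighbouring pathways and cell type markers; filled points passed the edgeR test, open points did not, and black lines are list medians. The kinetochore and checkpoint genes have a median of −2.42, early meiosis markers a median of −4.66 and Sertoli cell markers a median of 1.32.

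Markers of the cell types in the tissue differed between the same libraries, where 30.2% of all genes tested fell and 27.9% rose. Of the markers tested, 15 of 15 fell for early meiosis (median −4.66), 9 of 10 for pachytene spermatocytes (median −7.01), all 5 for spermatids (median −4.04) and 8 of 11 for spermatogonia (median −2.36). Dazl, a germ cell RNA-binding protein, measured 594.3 ± 83.6 CPM in WT against 19.9 ± 9.63 CPM in KO, and Piwil1, a PIWI protein of spermatocytes, measured 419.6 ± 65.7 and 1.62 ± 1.17 CPM (SD, n = 3). Somatic markers went the other way: 9 of 10 Sertoli, 6 of 6 Leydig, 7 of 9 macrophage and 5 of 10 peritubular and vascular markers rose, and 1 peritubular marker fell. The summed level of the 10 Sertoli markers was 7223 to 8085 CPM in WT and 14461 to 21891 CPM in KO. Their part in the lower kinetochore levels was not tested, and in whole tissue fewer dividing germ cells and less RNA per cell cannot be told apart.

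In oocytes and embryos the summed level of these transcripts was lowest at 33PEA in WT and lower at 33PEA than at any earlier stage in KO, as a description with no test. The summed level of the 35 genes was 6559 to 7003 CPM in the 4 GV libraries and 8082 to 10362 CPM in the 4 MII libraries. It was 6434 to 9301 CPM at 10PEA, 5912 to 9458 CPM at 1C-20PEA and 2488 to 2788 CPM at 33PEA. At 54PEA it was 3911 and 5129 CPM in WT and 1444 and 3141 CPM in KO. At GV both KO libraries lay slightly above both WT libraries, at MII, 10PEA, 1C-20PEA and 33PEA the genotypes overlapped, and at 54PEA both KO libraries lay below both WT libraries. Oocyte markers were high in the early libraries: Gdf9, an oocyte growth factor, measured 3279 to 4056 CPM in GV oocytes, and 11 oocyte markers together came to 12666 to 15154 CPM. Granulosa and cumulus cell markers summed to 17.0 to 43.4 CPM in the same 4 libraries.

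**Figure D3:**
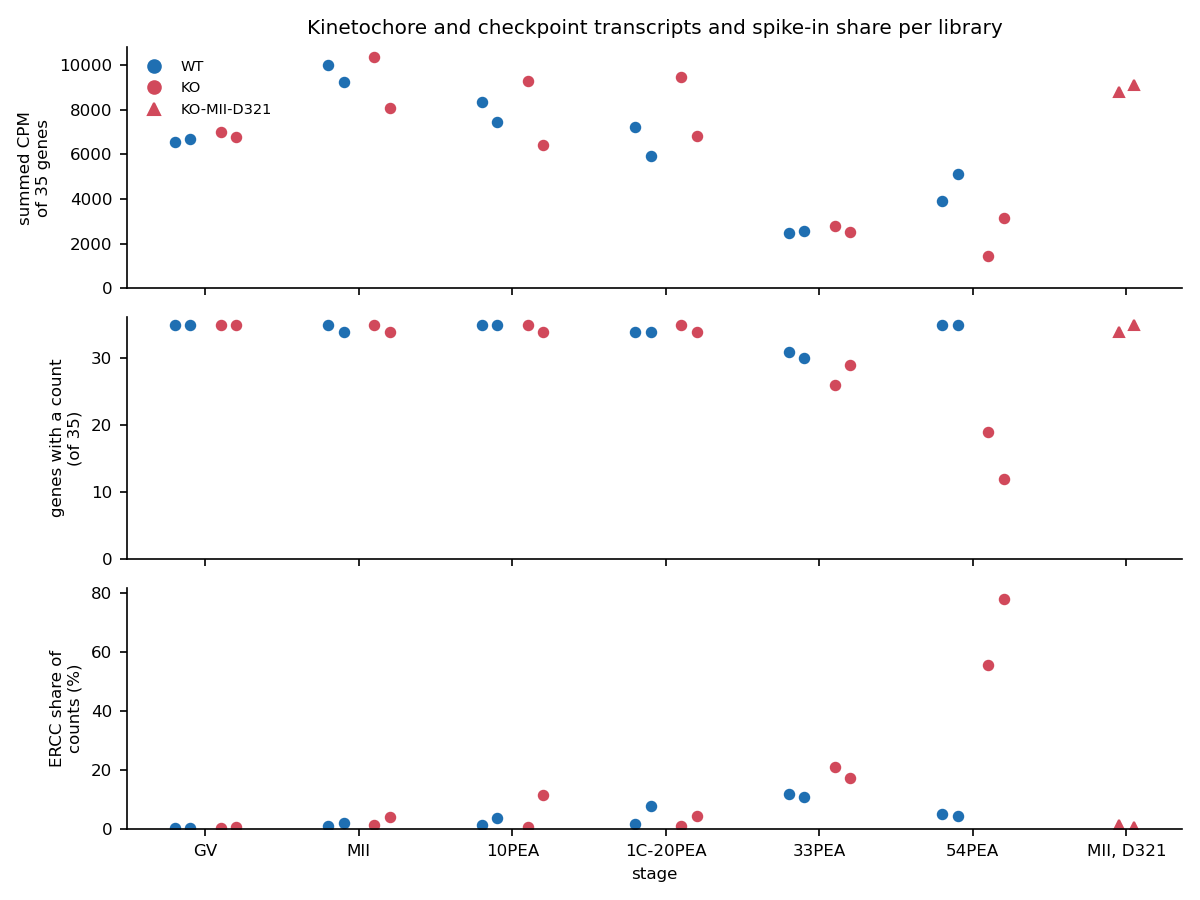
Summed level of the 35 genes in CPM, number of the 35 genes with a count, and ERCC spike-in share of all counts in percent, for each oocyte and embryo library by stage; blue is WT, red is KO and triangles are the KO-MII-D321 libraries. Both KO libraries at 54PEA combine 19 and 12 counted genes with spike-in shares of 55.5% and 77.8%.

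**Figure D4:**
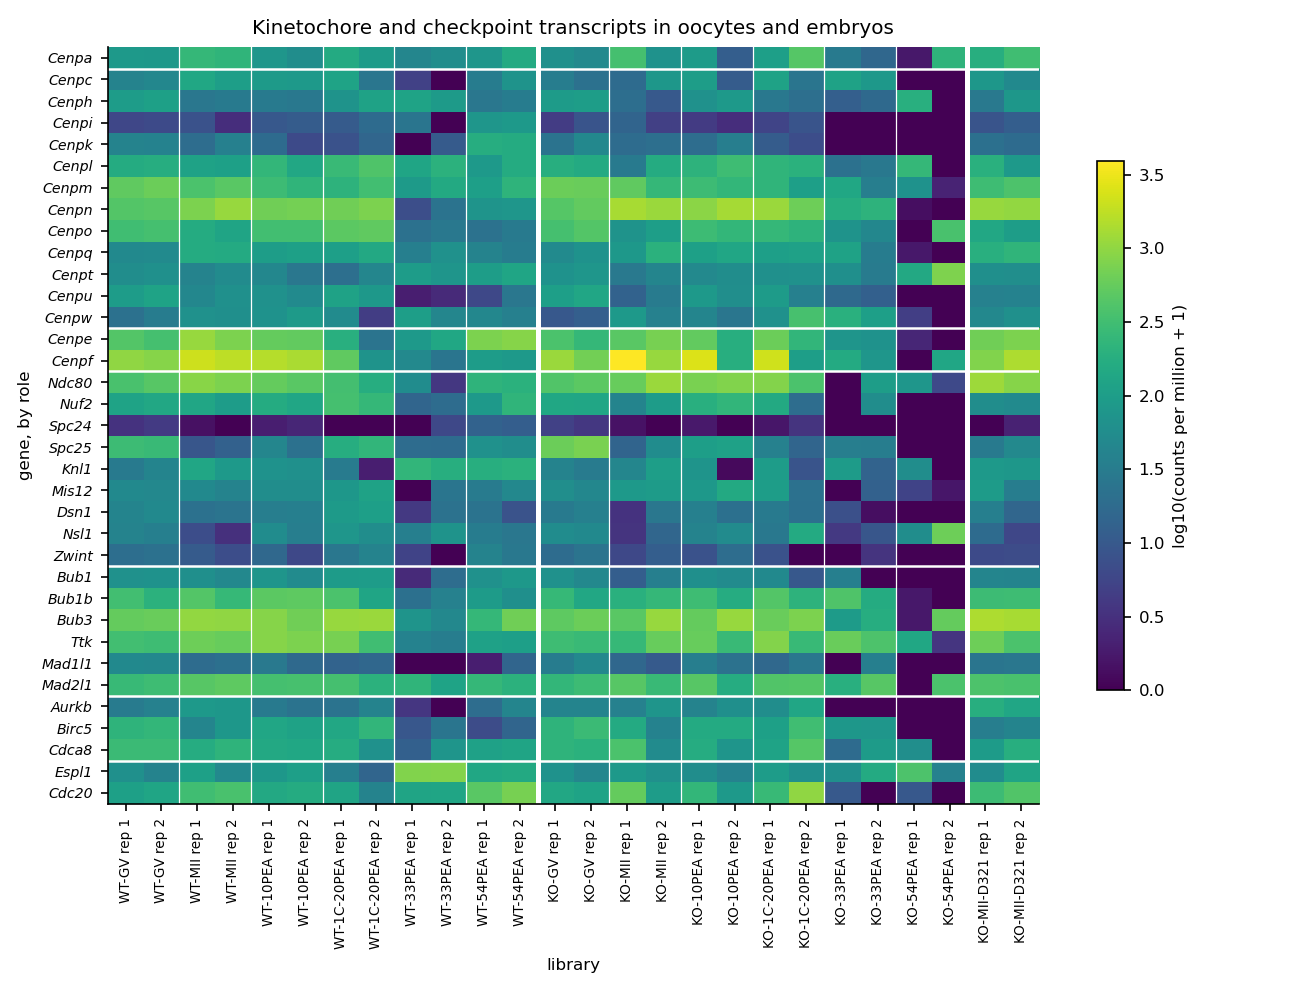
Level of the 35 genes, grouped by role, in the 26 oocyte and embryo libraries as log10 of CPM plus 1; columns are libraries ordered by genotype and stage. Low values gather at 33PEA in both genotypes and at 54PEA in KO, where 13 genes had no count in either library.

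By group means, and with no test, 15 of the 35 genes had their highest WT level in oocytes (6 at GV and 9 at MII), 11 between 10PEA and 1C-20PEA, and 9 in later embryos (3 at 33PEA and 6 at 54PEA). The 6 genes with their WT maximum at 54PEA were Cenpi, Cenpk, Cenpt, Spc24, Zwint and Cdc20. The lowest WT mean fell at 33PEA for 21 genes.

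From GV to MII the result in WT depended on which libraries entered the fit. When all 26 libraries shared 1 estimate of the spread, 0 of 35 genes passed (0.202% of all genes did, each of them lower in MII). Of the 35, 4 had an unadjusted p below 0.05, as did 9.19% of all genes. DESeq2 called 1 of the 35 and 978 of all 17294 genes. When only the 2 WT groups were fitted, 16 genes rose and 4 fell, and of all 12826 genes tested 17.6% rose and 25.6% fell. Spc25 showed the largest change in that fit: it measured 295.0 and 276.5 CPM at GV and 8.18 and 11.97 CPM at MII (log2 −4.24 ± 0.35, adjusted p = 1.38e-04 in the edgeR fit of the 2 groups). In the pooled fit its adjusted p was 0.0526. In KO oocytes Spc25 measured 621.6 and 749.2 CPM at GV and 13.4 and 55.2 CPM at MII, and the edgeR pooled fit gave a log2 change of −3.94 ± 0.92 with an adjusted p of 0.0542. In KO 0 of 35 genes passed at this step, where 0.480% of all genes did. An unadjusted p below 0.05 was found for 4 of them and for 14.9% of all genes. DESeq2 called 4 of the 35 and 1698 of all 17294 genes. Spc25 was therefore low at MII in both genotypes while its Ndc80 complex partner Ndc80 measured 903.2 and 778.0 CPM at WT MII against 364.5 and 464.2 CPM at WT GV.

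Other WT changes from GV to MII in the fit of the 2 groups were also divided by gene within complexes. Aurkb rose from a mean of 33.5 to 81.7 CPM (log2 1.85 ± 0.32), whereas its passenger complex partner Birc5 fell from 228.8 to 60.6 CPM (log2 −1.33 ± 0.36). Knl1 rose from 34.8 to 109.9 CPM (log2 2.21 ± 0.37), and Nsl1 of the Mis12 complex fell from 36.5 to 4.17 CPM (log2 −2.59 ± 0.56). Cdc20, Cenpa and Cenpq rose by a log2 of 2.08, 2.09 and 2.23. Of the 6 checkpoint genes, Bub1b, Mad2l1, Bub3 and Ttk rose in this fit. These genes are named from that alternative fit, after its values were seen, and all 20 stayed on the other side of the threshold in the pooled fit. Their levels are shares of the gene counts. Gene counts per spike-in count were 258.1 and 276.3 in the WT GV libraries, against 99.2 and 48.7 in the WT MII libraries. In the pooled fit, spike-in scaling moved the median log2 change of all genes from −0.38 to −2.64. The fit of the 2 groups was not run with spike-in scaling.

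From MII to 10PEA and from 10PEA to 1C-20PEA no gene passed in the pooled fit in either genotype. In WT 1 and 2 of the 35 genes had an unadjusted p below 0.05 at these 2 steps and DESeq2 called 0 and 1. In KO the same counts were 0 and 2, and 0 and 1. Over all genes, 2.76% and 3.15% had such a p in WT, and 7.62% and 2.42% in KO. DESeq2 called 169 and 153 of all 17294 genes in WT, and 666 and 137 in KO. The share of all genes that passed was 0% at 3 of these 4 steps and 0.0173% from MII to 10PEA in KO. The fit of the 2 WT groups called 7 genes lower and 1 higher at 10PEA than at MII, where 5.33% and 5.79% of all genes were called. Cenpa (237.2 to 66.8 CPM, log2 −2.22 ± 0.29), Aurkb (81.7 to 25.1 CPM, log2 −2.09 ± 0.34) and Cdc20 (340.1 to 155.3 CPM, log2 −1.52 ± 0.27) were among the lower, and Nsl1 was the one higher (4.17 to 44.1 CPM, log2 3.04 ± 0.58).

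The step from 1C-20PEA to 33PEA held the most calls in the pooled fit along the WT course from one stage to the next. Fits of the 2 groups compared called 11 genes at this step and 20 from GV to MII. They called 4327 of all 11832 genes and 5540 of all 12826 there. In the pooled edgeR fit 12 of 35 genes fell and 1 rose, where 15.7% of all genes tested fell and 4.96% rose, 20.6% in all. The median log2 change was −3.17 for the 35 genes and −1.23 for all genes. Spread over the roles, 4 of 12 inner kinetochore genes, 2 of 9 outer kinetochore genes, 4 of 6 checkpoint genes and 2 of 3 passenger complex genes fell. Cenpn measured 646.7 and 766.7 CPM at 1C-20PEA and 6.19 and 22.2 CPM at 33PEA (log2 −5.84 ± 0.81, edgeR adjusted p = 2.15e-04). Cenpu measured 118.2 and 81.9 CPM at 1C-20PEA and 1.03 and 1.65 CPM at 33PEA (log2 −6.38 ± 1.203, edgeR adjusted p = 0.00172). Mad1l1 measured 13.04 and 14.8 CPM at 1C-20PEA and had no count at 33PEA, at least 46.6-fold lower against the floor of 3 counts over the group (edgeR adjusted p = 0.0143). For all 3 genes the 2 stages did not overlap. Also lower were Cenpc, Cenpo, Nuf2, Spc25, Bub1b, Bub3, Ttk, Aurkb and Birc5, with log2 changes from −5.27 to −3.32. Leaving out 1 library at a time kept 4 to 9 of the 13 calls, with 4 kept without WT-33PEA replicate 2 and 5 without WT-33PEA replicate 1. Only 2 of the 13 passed in all 4 refits, and Nuf2 passed in none of them.

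Espl1 was the 1 riser at this step. It measured 34.4 and 13.8 CPM at 1C-20PEA in WT, 821.2 and 859.2 CPM at 33PEA and 138.2 and 150.1 CPM at 54PEA. The rise had a log2 of 4.96 ± 1.12 (edgeR adjusted p = 0.00480), and the later drop did not pass (log2 −2.62 ± 1.00, adjusted p = 0.119). Under spike-in scaling the rise no longer passed. In KO embryos Espl1 measured 95.6 and 60.7 CPM at 1C-20PEA and 60.2 and 159.1 CPM at 33PEA, with overlapping groups. Both KO libraries at 33PEA lay below both WT libraries, and that difference did not pass (log2 −2.92 ± 1.02, edgeR adjusted p = 0.0665).

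**Figure D5:**
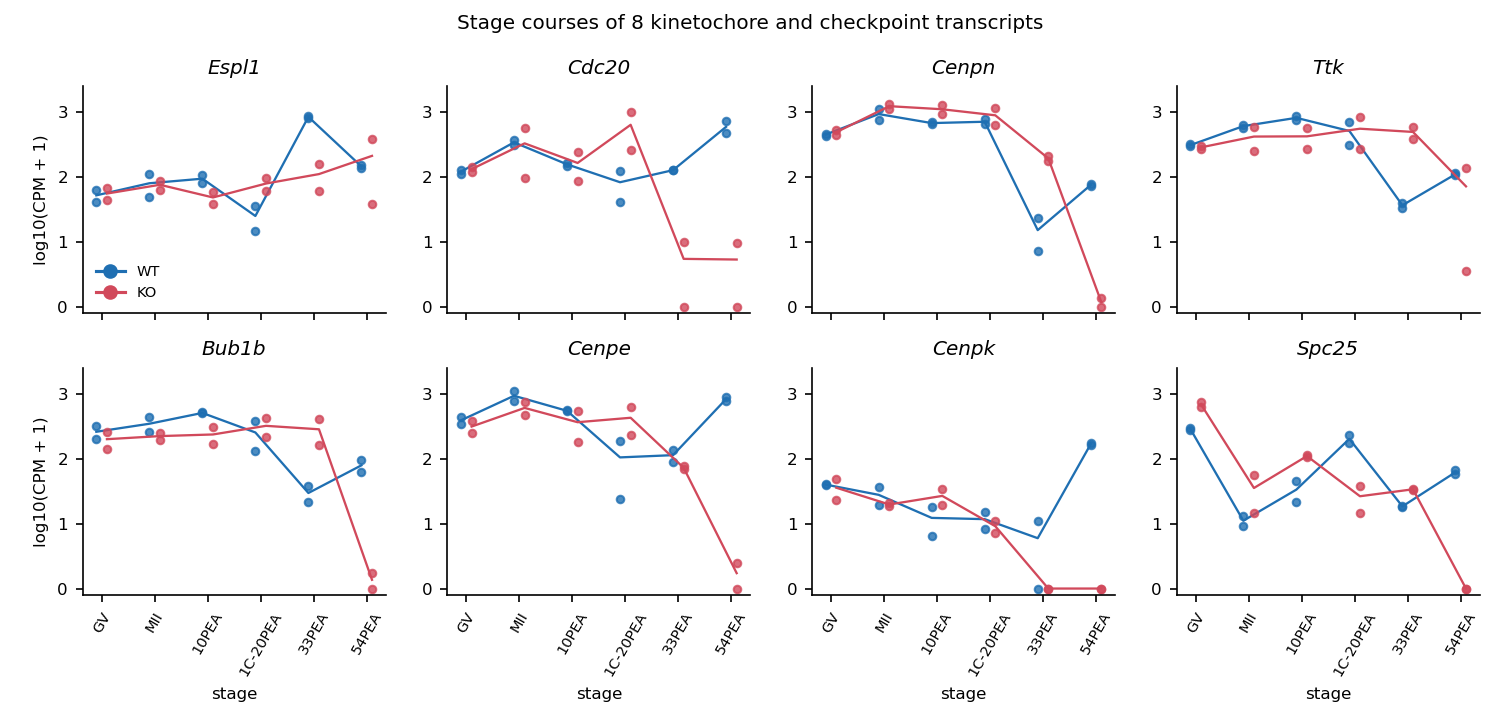
Levels of Espl1, Cdc20, Cenpn, Ttk, Bub1b, Cenpe, Cenpk and Spc25 at the 6 stages as log10 of CPM plus 1; points are single libraries (2 per group) and lines join group means, blue for WT and red for KO. Espl1 peaks at 33PEA in WT at 821.2 and 859.2 CPM. Cenpn, Ttk and Bub1b are higher in KO than in WT at 33PEA, and 7 of the 8 genes have a KO library at or below 2.59 CPM at 54PEA.

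In KO the step from 1C-20PEA to 33PEA had 6 falls and 0 rises, where 4.16% of all genes fell, 0.919% rose and 5.08% passed in all. Aurkb went from 56.3 and 131.2 CPM to no count in either library, at least 389-fold lower (edgeR adjusted p = 0.00159). Cenpk went from 10.1 and 6.11 CPM and Cenpi from 4.39 and 7.58 CPM to no count, at least 33.6-fold and at least 24.8-fold lower. Cdc20 fell from 260.1 and 1008 CPM to 8.97 and 0 CPM (log2 −7.44 ± 1.70, edgeR adjusted p = 0.0133). Nsl1 and Cenpn fell by 4.39 and 2.54 on the log2 scale. Cenpn and Aurkb passed and fell at this step in both genotypes. Passing or not, the log2 change was below 0 for 28 of the 35 genes in WT and for 32 in KO. The overlap of calls over all genes was not counted, so these calls do not show that different genes fell. Leaving out 1 library at a time kept 1 to 3 of these 6 KO calls, with Aurkb alone kept without KO-33PEA replicate 2.

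Between genotypes, no gene passed at GV, MII, 10PEA or 1C-20PEA, where 0% of all genes passed at each of the 4 stages in edgeR. DESeq2 called 0, 0, 0 and 2 of the 35 genes, and 14, 219, 89 and 569 of all 17294. Of the 35 genes, 0, 0, 1 and 5 had an unadjusted p below 0.05, against 0.162%, 4.09%, 1.54% and 6.06% of all genes. Spc25 was the 1 gene at 10PEA (43.9 and 20.7 CPM in WT, 103.2 and 113.9 CPM in KO). It was above WT in both KO libraries at GV and MII as well, with log2 differences of 1.25 ± 0.83 at GV, 1.71 ± 0.84 at MII and 1.90 ± 0.85 at 10PEA, and below WT at 1C-20PEA (171.2 and 229.3 CPM in WT, 37.0 and 13.7 CPM in KO, log2 −2.79 ± 0.88, adjusted p = 0.697). The other 4 genes at 1C-20PEA were Cenpw, Cenpe, Spc24 and Cdc20, each higher in both KO libraries than in both WT libraries, with an adjusted p of 0.768 each. With 2 libraries per group and standard errors of this size, differences of several fold or much larger could have been missed. In simulated data for KO against WT at 33PEA, 0 of 50 genes changed 4-fold were recovered. Of 50 genes changed 16-fold, 3 were recovered. That simulation was made for 33PEA and not for these 4 stages.

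The KO-MII-D321 libraries held the 35 genes at 8796 and 9116 CPM in sum, within the range of the other MII libraries. Against WT MII and against KO MII, 0 of 35 genes passed (0% of all genes in either comparison). Spc25 was the only one with an unadjusted p below 0.05 against WT, at 28.6 and 48.2 CPM in D321, and none had one against KO. Over all genes, 1.61% and 4.54% had an unadjusted p below 0.05 against WT and against KO. DESeq2 called 0 of the 35 in both comparisons, and 114 and 251 of all 17294 genes.

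At 33PEA 10 of 35 genes differed between genotypes in the pooled edgeR fit, 6 higher and 4 lower in KO, where 10.1% of all genes differed, 5.66% higher and 4.46% lower. The 6 higher genes were Cenpc, Cenpn, Cenpu, Bub1b, Ttk and Mad1l1, and each of them is among the 12 genes that fell in WT from 1C-20PEA to 33PEA. The 2 contrasts share the WT 33PEA libraries, so this overlap is a description. Cenpn measured 6.19 and 22.2 CPM in WT and 173.9 and 209.9 CPM in KO (log2 3.82 ± 0.74, edgeR adjusted p = 0.00468). Ttk measured 38.7 and 32.6 CPM in WT and 596.4 and 387.6 CPM in KO (log2 3.80 ± 1.14, edgeR adjusted p = 0.0381). For both the KO libraries lay above the WT libraries.

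Bub1b measured 20.3 and 36.8 CPM in WT and 399.7 and 163.8 CPM in KO (log2 3.35 ± 0.87, edgeR adjusted p = 0.0214). Cenpc measured 3.96 and 0 CPM in WT and 116.0 and 82.3 CPM in KO (log2 5.56 ± 1.57, edgeR adjusted p = 0.0306). Cenpu measured 1.03 and 1.65 CPM in WT and 15.99 and 11.5 CPM in KO (log2 3.38 ± 1.06, edgeR adjusted p = 0.0458). These groups did not overlap. Mad1l1 had no count in WT and measured 0 and 34.2 CPM in KO, so its call rests on 1 library.

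The 4 lower genes at 33PEA were Cenpi, Cenpk, Aurkb and Cdc20. Cdc20 measured 124.7 and 127.7 CPM in WT and 8.97 and 0 CPM in KO (log2 −4.77 ± 1.51, edgeR adjusted p = 0.0466). Cenpi (24.1 and 0 CPM in WT), Cenpk (0 and 9.92 CPM) and Aurkb (2.75 and 0 CPM) had no count in either KO library, and each rests on 1 WT library. Oocyte markers moved beside these changes: Gdf9 measured 501.2 and 380.1 CPM in WT and 2295 and 2598 CPM in KO at 33PEA, and their part in the result was not tested. Leaving out 1 library at a time kept 3 or 4 of the 10 calls, with Cenpn the only gene that passed in all 4 refits. None of the 35 genes passed under spike-in scaling, where 71 of all 17294 genes did. When only the 2 groups at 33PEA were fitted, 0 of the 30 genes tested passed, and 0 of all 9266 genes.

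From 33PEA to 54PEA in WT 3 of 35 genes rose and 0 fell, where 2.47% of all genes rose and 4.61% fell, 7.08% in all. They were Cenpn (6.19 and 22.2 to 71.7 and 76.7 CPM, log2 2.35 ± 0.70, edgeR adjusted p = 0.0414), Aurkb (2.75 and 0 to 18.1 and 42.0 CPM, log2 4.27 ± 1.27, edgeR adjusted p = 0.0451) and Mad1l1 (no count to 0.987 and 13.9 CPM, at least 24.9-fold). Without the 2 KO libraries at 54PEA, the pooled fit called 9 of the 35 genes at this step, 7 higher and 2 lower, and 2247 of all 17058. Under spike-in scaling 0 were called, and leaving out 1 library at a time kept at most 1 of the 3 calls, with 0 kept without WT-54PEA replicate 2.

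Against GV, 5 genes were lower in WT at 54PEA and 0 higher in the pooled fit, where 18.5% of all genes were lower, 3.15% higher and 21.6% changed in all. Birc5 showed the largest fall, from 218.5 and 239.1 CPM at GV to 5.92 and 13.9 CPM at 54PEA (log2 −4.80 ± 1.00, edgeR adjusted p = 0.00172). Cenpo, Cenpu, Cenpn and Spc25 also fell, with log2 changes of −3.99, −3.12, −2.89 and −2.53. Leaving out 1 library at a time left 0 to 3 of these calls, with 0 without WT-54PEA replicate 1. The fit of the 2 groups alone called 12 genes lower and 7 higher, where 40.6% and 23.9% of all genes were called. The 7 higher genes were Cenpi, Knl1, Cdc20, Spc24, Cenpk, Espl1 and Cenpe. Cenpi measured 4.90 and 5.50 CPM at GV and 77.3 and 85.7 CPM at 54PEA (log2 3.69 ± 0.40, adjusted p = 0.00417 in that fit). Cdc20 measured 110.9 and 128.4 CPM at GV and 466.3 and 712.9 CPM at 54PEA (log2 2.03 ± 0.34, adjusted p = 0.00784). For both genes every 54PEA library lay above every GV library, and neither passed in the pooled fit. Under spike-in scaling the pooled fit called 15 of the 35 genes lower and 0 higher, and 5964 of all 17294 genes in either direction. That scaling moved the median log2 change of all genes from −1.21 to −4.68. The fit of the 2 groups was not run with it. The 11 oocyte markers had fallen to 116.2 and 85.5 CPM in sum in the WT 54PEA libraries.

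KO embryos at 54PEA had 18 of the 35 genes lower than WT and 0 higher, where 16.9% of all genes were lower, 4.04% higher and 20.9% differed in all. The median log2 difference was −6.84 for the 35 genes and −1.07 for all genes. Every comparison with this group rests on the 2 libraries described above, whose gene counts were low, whose spike-in share was high and which held 757.8 and 2511 CPM of oocyte markers. The part of these values in the differences was not tested. Of the 18 genes, 12 had no count in either KO library. Cenpk measured 172.3 and 160.8 CPM in WT and had no count in KO, at least 239-fold lower (edgeR adjusted p = 8.41e-04). Nuf2 was at 88.0 and 223.5 CPM in WT and at 0 in KO, at least 223-fold lower, and Cenpi was at 77.3 and 85.7 CPM and at 0, at least 117-fold lower. These bounds cover counting error only and not the disagreement between the 2 KO libraries.

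Among genes with a KO count, Cenpe measured 757.8 and 888.9 CPM in WT and 1.45 and 0 CPM in KO (log2 −10.44 ± 1.35, edgeR adjusted p = 1.66e-05). Cdc20 measured 466.3 and 712.9 CPM in WT and 8.71 and 0 CPM in KO (log2 −7.42 ± 1.71, edgeR adjusted p = 0.00351). Bub1b and Cenpn measured 61.5 to 94.1 CPM in the WT libraries and 0 to 0.726 CPM in the KO libraries. The remaining calls were Bub1, Spc25, Cenpc, Zwint, Aurkb, Cenpu, Dsn1, Birc5, Mad1l1, Cenpq and Cenpw, which measured 0.987 to 80.5 CPM in the WT libraries and 0 to 3.63 CPM in the KO libraries. In WT every one of the 18 genes had counts in both libraries. As a description of genes picked by their call in these libraries, every KO value lay below both WT values. The share of all genes with such a gap was not counted. For Mad1l1, at 0.987 CPM in WT replicate 1, that gap is within the 1.09 and 1.94 CPM that a count of 0 allows in the KO libraries, and its call was lost in 3 of 4 refits that left out 1 library. Leaving out 1 library at a time gave 17 to 27 calls, the most without KO-54PEA replicate 1.

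Not all transcripts were low in these KO embryos, and the 2 libraries disagreed on which were present. Only 9 genes had counts in both: Cenpa, Cenpm, Cenpt, Ndc80, Mis12, Nsl1, Bub3, Ttk and Espl1. Cenpt measured 145.9 and 805.6 CPM in KO against 100.4 and 128.6 CPM in WT, and Nsl1 measured 57.3 and 634.6 CPM against 31.4 and 25.4 CPM. Cenpa (0.726 and 217.6 CPM) and Bub3 (0.726 and 553.0 CPM) were each high in KO replicate 2 alone. For Mad2l1 the KO values were 0 and 379.5 CPM, and for Cenph they were 185.1 and 0 CPM.

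Within KO, the step from 33PEA to 54PEA had 14 falls and 1 rise, where 21.8% of all genes fell and 4.21% rose. Among genes with no count left at 54PEA, the falls included Cenpc (116.0 and 82.3 CPM to no count, at least 142-fold lower), Birc5 (78.9 and 75.6 CPM to no count, at least 111-fold lower) and Spc25 (33.2 and 32.2 CPM to no count, at least 46.9-fold lower). Nsl1 was the riser, from 2.99 and 8.02 CPM to 57.3 and 634.6 CPM (log2 4.81 ± 1.30, edgeR adjusted p = 0.00876). The Nsl1 call was lost under spike-in scaling, and also without KO-33PEA replicate 1 or without KO-54PEA replicate 2. Against GV, 20 genes fell and 0 rose in KO at 54PEA, where 33.1% of all genes fell, 3.00% rose and 36.1% passed in all. Spc25 (621.6 and 749.2 CPM at GV), Birc5 (218.6 and 285.7 CPM) and Nuf2 (138.2 and 133.1 CPM) had no count at 54PEA. By counting error alone they were at least 982-fold, 361-fold and 194-fold lower. All such bounds for KO at 54PEA leave out the disagreement between the 2 libraries, such as 0 and 379.5 CPM for Mad2l1. When only the 2 groups were fitted, 0 of the 26 genes tested passed from 33PEA to 54PEA in KO, and 0 of all 7148 genes.

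Averaged over the 6 stages, 8 genes were lower in KO and 0 higher, where 6.24% of all genes were lower, 1.69% higher and 7.93% differed in all. They were Cenpi, Cenpk, Dsn1, Aurkb, Bub1, Nuf2, Cenpe and Spc25, and 0 of them passed when the average was taken without 54PEA. The KO minus WT difference varied between stages for 14 of 35 genes and for 9.40% of all genes (edgeR F test). It did so for 0 of the 35 when 54PEA was left out of that test. Both tests without 54PEA kept its libraries in the fit.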

How the data were processed

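Long RNA of 32 libraries was analysed (6 of testis, 26 of oocytes and embryos). Their small RNA libraries were not used here. The authors deposited whole-number read counts per gene, 1 table per library, and the submitters' processing notes name STAR 2.7.1a, TopHat, Trim Galore and featureCounts without giving their roles. The handling of strand and of reads that match several genes is not given in the sources used here. Tables held 32303 gene rows and 92 ERCC rows, and 8 lines naming no gene were dropped. CPM values are counts divided by the total gene count of the library, without ERCC, and multiplied by 1e+06. They are not corrected for gene length, so levels are compared between libraries and not between genes. All 35 symbols are also in the RefSeq gene table. PCR reads carry no molecular identifiers, so floors cover counting error only, and a floor is 3 counts over a group.

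Counts were tested in R 4.3.3 with edgeR 4.0.16 (filterByExpr, TMM scaling, quasi-likelihood F test, Benjamini-Hochberg adjustment over all genes, threshold 0.05). Testis was fitted alone (18024 genes), and a single model with 13 group means covered the 26 libraries of oocytes and embryos (17294 genes), with common dispersions of 0.0806 and 1.07. The standard error is the log2 change divided by the square root of F. Because TMM rescales libraries, a log2 change can differ from the ratio of CPM means, at times in sign. From WT GV to MII, Bub1 went from a mean of 65.9 to 53.6 CPM. Its log2 change in the fit of the 2 groups was 0.27. All 35 genes passed the filter in both fits. Alternatives were DESeq2 1.42.0, median-of-ratios, spike-in or total count scaling, no filter, a replicate block, fits of 2 groups, and leaving out each library in turn. Tests without 54PEA took that stage out of the contrast and kept its libraries in the fit. The scripts were tested on simulated data. Figures were drawn with matplotlib 3.10.9 and tables made with pandas 2.3.3.

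The 35 genes, the pathway lists and the marker lists were chosen with earlier results of these data known. Values per library are given for the gene of each role with the highest WT testis mean and that with the largest testis change, for those that did not pass in testis, for those that passed between genotypes in oocytes or embryos, and for the 3 largest rises and falls of each stage step. Other lists name up to 3 genes, taken from the 3 with the largest testis change in the list and not always in order of size.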

Additional observations from a re-analysis of the deposited data

Results flagged for a closer look

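The difference between KO and WT varied across the 6 oocyte and embryo stages for 14 of the 35 genes, by a test of that difference itself (edgeR quasi-likelihood F test, 2 libraries per group). The adjusted p was 0.000156 for Cenpn, 0.00033 for Spc25, 0.000688 for Cenpe, 0.000728 for Bub1b, 0.00494 for Cenpu, 0.00673 for Aurkb, 0.00834 for Birc5, 0.00937 for Cenpk, 0.0111 for Cenpc, 0.0130 for Cenpq, 0.0149 for Cdc20, 0.0280 for Cenpi, 0.0313 for Nuf2 and 0.0428 for Mad1l1. In the edgeR test without 54PEA 0 of these genes passed, and 32 of all 17294 genes did. That test takes the stage out of the contrast for WT and KO together. The 54PEA libraries stayed in the fit and in its estimate of the spread.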

How the results depend on the processing

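In testis 30 to 33 genes passed whichever library was left out, and 29 of the 32 calls were kept in every such refit. Mis12 took the other sign under median-of-ratios scaling (log2 −0.012), total count scaling (−0.10), the replicate block (−0.017), DESeq2 (−0.012) and without WT replicate 3 (−0.0086), KO replicate 1 (−0.17) or KO replicate 2 (−0.017), with a range of −0.17 to 0.23 over the libraries left out. Averaged without 54PEA, Spc25 was at a log2 of 0.60 and Cenpe at 0.034. Of the 35 genes 0 passed in that average or in the F test between stages, where 56 and 32 of all 17294 genes did. Spike-in scaling gave 0 calls between genotypes at 33PEA (71 of all 17294 genes) and 30 at 54PEA (7445 of all genes). Along the WT course it gave 0 from 33PEA to 54PEA and 15 from GV to 54PEA, all 15 of them lower. Of all 17294 genes it called 1 and 5964 at these steps. Along the KO course it gave 19 from 1C-20PEA to 33PEA (3500 of all genes) and 35 from GV to 54PEA (13768 of all genes). It moved the median of all genes at 54PEA from −1.07 to −5.05. Fits of the 2 groups compared gave 0 calls between genotypes at 33PEA, where 0 of all 9266 genes were called. They gave 20, 8 and 19 for WT GV to MII, MII to 10PEA and GV to 54PEA. Over all genes these were 5540 of 12826, 1286 of 11568 and 9120 of 14134. They gave 0 for KO 1C-20PEA to 33PEA (0 of all 10636 genes) and 0 for KO 33PEA to 54PEA (0 of all 7148 genes). DESeq2 gave 2 between genotypes at 1C-20PEA, and 569 of all 17294 genes. Along the WT course DESeq2 gave 1 from GV to MII, 1 from 10PEA to 1C-20PEA, 9 from 33PEA to 54PEA and 8 from GV to 54PEA. Of all 17294 genes it called 978, 153, 3146 and 5470 there. Along the KO course it gave 4, 1 and 12 from GV to MII, 10PEA to 1C-20PEA and 1C-20PEA to 33PEA. Over all genes these KO counts were 1698, 137 and 3033. Median-of-ratios scaling gave 1 from GV to MII in either genotype, with 64 of all 17294 genes in WT and 107 in KO. It gave 5 for WT 33PEA to 54PEA (1268 of all genes), where no low-count filter gave 1 (1625 of 23521). Without both KO-54PEA libraries, a setting chosen after seeing the data, the WT counts were 1 from GV to MII, 9 from 33PEA to 54PEA and 10 from GV to 54PEA. Of all 17058 genes 298, 2247 and 4931 were called. The KO counts were 2 from GV to MII (567 of all genes) and 11 from 1C-20PEA to 33PEA (1681 of all genes). The cause was not tested.

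Leaving out 1 library at a time gave 3 to 5 calls at 33PEA, 17 to 27 at 54PEA, 5 to 17 in the average, 13 to 23 in the F test, 6 to 9 for WT 1C-20PEA to 33PEA, 0 to 3 for WT 33PEA to 54PEA, 0 to 3 for WT GV to 54PEA, 3 to 5 for KO 1C-20PEA to 33PEA, 12 to 22 for KO 33PEA to 54PEA and 19 to 25 for KO GV to 54PEA. A group left with 1 library is assumed to vary like the others. Deviations of same-numbered libraries correlated from −0.120 to 0.036 in testis and from −0.062 to 0.288 elsewhere, so the numbers were not taken to pair libraries. With the replicate block 1 of the 35 genes passed for WT 33PEA to 54PEA, and 1125 of all 17294. Depth limits the KO-54PEA values, where 3 counts are worth 1.09 and 1.94 CPM.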
